A study of Arabidopsis thaliana with 24 samples.

Results

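The comparison described here set seedlings overexpressing EXPA1 against wild type (WT) after 7 d of growth on dexamethasone (Dex). Its members were chosen by group: the 4 libraries of the EXPA1 OE line and the 4 libraries of WT on Dex for 7 d, 8 of the 24 RNA-seq libraries of the study. All genes of the table were taken, and 20665 of 33602 had enough counts to be tested. The study grew Arabidopsis thaliana (Col-0) under 16 h of light and 8 h of dark and sequenced polyA-selected RNA from shoots of 7-day-old seedlings. Its other groups were both genotypes without Dex and both after 3 h of Dex, each with 4 libraries. The EXPA1 OE line, 8-4, is a single line of the construct pRPS5A>GR>EXPA1, so a result of this line cannot be told apart from an effect of its insertion. In this construct the RPS5A promoter, best known for its activity in dividing tissue, drives a glucocorticoid-responsive transcription factor, and Dex, a synthetic glucocorticoid, lets that factor switch on the added EXPA1. Both genotypes were on Dex in the main comparison, so the inducer itself is shared. The labels call the 4 libraries of a group biological replicas and do not say whether these were separate cultures. P-values thus measure spread between these libraries, and in the main fit only what is left after the block described below.

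Expansins are small secreted proteins that loosen the cell wall (CW) without cutting its polysaccharides, and α-expansins such as EXPA1 act in wall extension during growth. They enter the endoplasmic reticulum (ER) as they are made, are folded there and leave in COPII-coated vesicles. When folding falls behind, membrane sensors of the unfolded protein response (UPR) activate transcription factors such as bZIP60 and bZIP28, which raise the genes of chaperones, oxidoreductases and degradation factors. In shoots, other wall genes of interest are the XTHs, which cut and rejoin xyloglucan, and the PMEs, which demethylate pectin.

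Levels are given as CPM, read counts relative to library size with TMM scaling over all 24 libraries. Fold changes are log2 values of EXPA1 OE over WT from edgeR (quasi-likelihood), fitted to the 8 libraries with a term for replicates 1 and 2 against replicates 3 and 4. A gene was called when its Benjamini-Hochberg adjusted p over all tested genes was below 0.05 and its log2 fold change was at least 1 in size, and "rose", "fell", "higher" and "lower" are used for genes that passed. The count filter could be passed through 1 genotype alone, so genes silent in the other were also tested. The block follows a parting of the libraries seen in the counts and is stated by no label. It takes out the difference between the pairs of replicates that both genotypes share, so p-values of this fit measure the remaining spread. WT libraries held 58134054 to 79909599 counts and EXPA1 OE libraries 33618183 to 39958004, so the deeper libraries were those of WT. Counts of 2 libraries of the same pair had a chi-square per degree of freedom of 12.2 to 17.3, where sampling alone gives about 1. Those of different pairs had one of 51.8 to 124. No library was thus a mere resampling of another. Whether libraries of a pair shared plants or RNA cannot be told from these values. The genotypes did not overlap on the first principal component, where WT lay from -62.2 to -13.0 and EXPA1 OE from 2.09 to 81.3. Inside each genotype replicates 1 and 2 lay to the right of and above replicates 3 and 4.

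**Figure D1:**
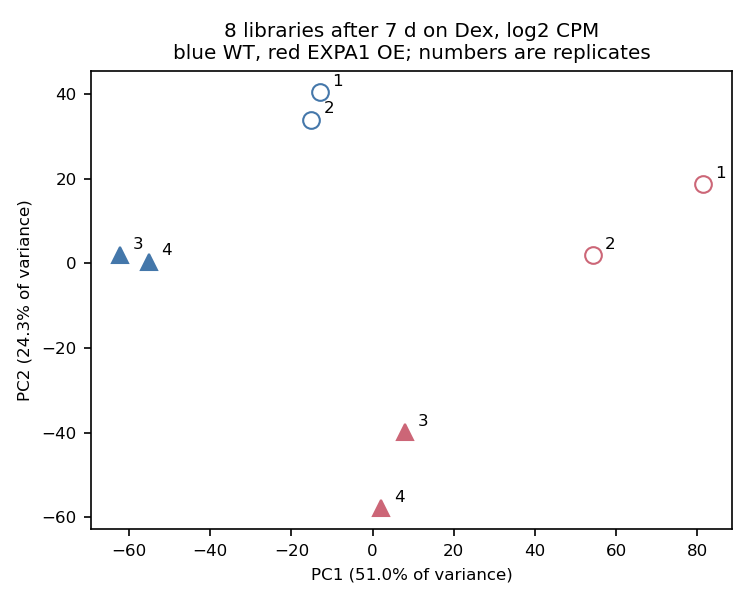
Principal components of log2 CPM of the 20665 tested genes in the 8 libraries, x, component 1 (51.0% of the variance), y, component 2 (24.3%), blue, WT, red, EXPA1 OE, open circles, replicates 1 and 2, filled triangles, replicates 3 and 4. WT lies left of EXPA1 OE on component 1, and replicates 3 and 4 lie below replicates 1 and 2 of their genotype on component 2.

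EXPA1 (AT1G69530, chromosome 1, 26141836 to 26143500 of TAIR10) was the targeted gene and checks the labels. In WT on Dex it stood at 405, 501, 362 and 281 CPM in replicates 1 to 4. In the EXPA1 OE line it stood at 15651, 14036, 10917 and 12344 CPM. Every EXPA1 OE library was above every WT library, with means of 13237 ± 2053 and 387 ± 91.5 CPM (SD, n = 4 each). The log2 fold change was 5.11 with a standard error (SE) of 0.12 (edgeR adjusted p = 3.57e-07). Without Dex the line held 428 ± 41.2 CPM and WT 365 ± 190 (SD, n = 4 each), and the genotype difference at 7 d exceeded the one without Dex by 4.88 on the log2 scale (edgeR adjusted p = 1.71e-06). After 3 h of Dex the log2 fold change was 5.64, and the difference at 7 d was smaller than that by 0.52 (edgeR adjusted p = 0.00423). Reads of the added and of the endogenous copy carry the same gene name here, so each level is a sum of both.

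Over all genes, 600 were higher (2.90% of those tested) and 621 lower (3.01%) in the EXPA1 OE line, 5.91% in all. Without the block the counts were 459 (2.22%) and 342 (1.65%), 3.88% in all, so the block moved the falls most. In WT itself, 7 d on Dex against no Dex gave 1 higher gene (0.00482%) and 0 lower. That fit had no block, so the spread between pairs counted against calls. Few calls thus do not show that Dex had no effect. Of the 600 rises 453 were also called without the block, and of the 621 falls 341. All 4 libraries of a genotype stood apart for 499 of the rises and 415 of the falls, beside 23.2% of all tested genes. Called genes were chosen on these same libraries, so their share cannot be weighed against that of all genes. Rises of more than 4-fold numbered 130 and falls of more than 4-fold 135. Without Dex only 44 genes (0.214%) were higher in the line, while 606 (2.94%) were lower (3.16% in all), so most differences of the uninduced line were falls. After 3 h of Dex 4.51% were higher and 4.89% lower (9.40% in all). The fits without Dex and after 3 h had no block, unlike the main fit at 7 d. Of the 621 genes lower at 7 d, 201 (32.4%) were among those 606 (33.2% of them). Of the 600 genes higher at 7 d, 17 (2.83%) were among the 44 (38.6% of them). The genotype difference itself at 7 d was tested against that without Dex (edgeR, adjusted p under 0.05). It was larger in the same direction at 7 d for 436 of the rises and 179 of the falls. Over all tested genes 10.4% passed upward and 6.81% downward. The rises and falls were chosen by their 7 d difference, which enters this test too. Their share thus cannot be weighed against that of all genes.

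**Figure D2:**
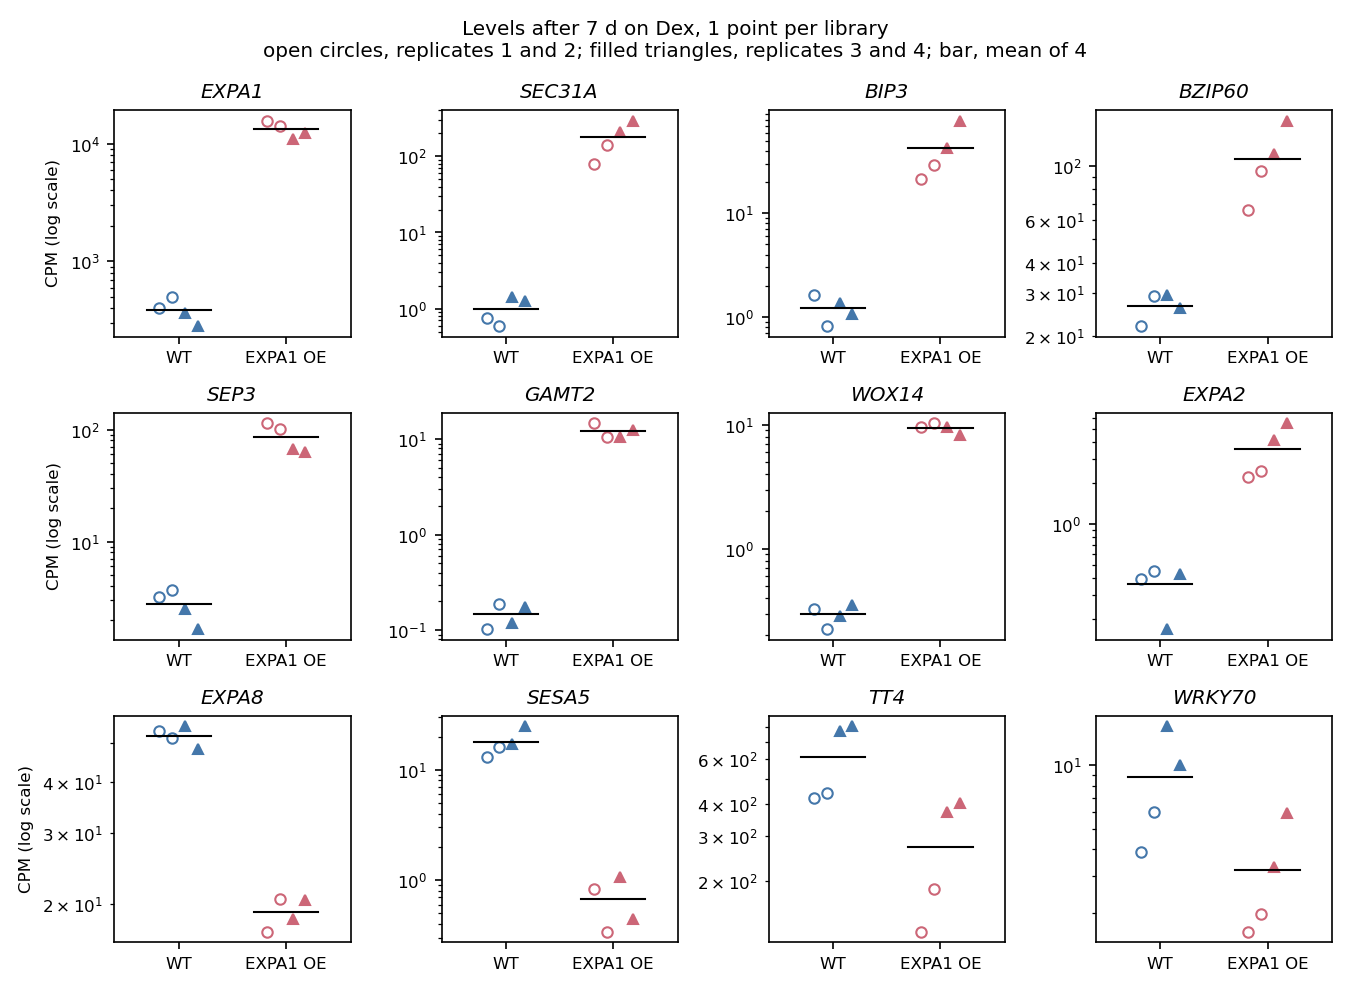
Levels of 12 genes after 7 d on Dex, y in CPM on a log scale, 1 point per library, blue for WT and red for EXPA1 OE, open circles, replicates 1 and 2, filled triangles, replicates 3 and 4, black bar, mean of 4. EXPA1, SEC31A, BIP3, BZIP60, SEP3, GAMT2, WOX14 and EXPA2 are above WT in all 4 EXPA1 OE libraries, EXPA8, SESA5 and TT4 are below in all 4, WRKY70 overlaps between genotypes.

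The largest rises included genes that were almost silent in WT. AT3G13630, an uncharacterized gene, had 2 counts over the 4 WT libraries and 1085 over the 4 EXPA1 OE libraries, a ratio of 937 after scaling by depth (95% interval 259 to 7744, counting error only). PUM11, which encodes an RNA-binding protein of the Pumilio family, had 2 and 754 counts (ratio 651, interval 180 to 5385). TLP5, a TUBBY-like protein gene, had 2 and 529 (ratio 457, interval 126 to 3781), and the protein kinase gene AT2G17170 had 2 and 339 (ratio 293, interval 80.4 to 2426). Their WT counts were at the limit of detection. SEC31A (AT1G18830, chromosome 1, 6489309 to 6494218), an outer coat subunit of COPII vesicles, had a measurable WT level. It stood at 0.750, 0.586, 1.41 and 1.27 CPM in WT and at 79.2, 141, 208 and 294 CPM in the EXPA1 OE line. Its log2 fold change was 7.48 (SE 0.25, edgeR adjusted p = 9.36e-07), the genotypes did not overlap, and replicates 3 and 4 were the higher libraries of both. AT3G19430, annotated as related to late embryogenesis abundant proteins, rose from 0.170 to 1.76 CPM in WT to 88.4 to 192 CPM (log2 fold change 7.12, SE 0.32).

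GAMT2 (AT5G56300, chromosome 5, 22799507 to 22801692) encodes a methyltransferase that inactivates gibberellins and is best known from developing seeds. Its WT levels were 0.102, 0.190, 0.117 and 0.176 CPM, and its EXPA1 OE levels 14.6, 10.6, 10.7 and 12.4 CPM. The line was far above WT in every library (log2 fold change 6.32, SE 0.21, edgeR adjusted p = 8.17e-07). After 3 h of Dex the GAMT2 log2 fold change was 1.79, and the 7 d difference exceeded it by 4.55 (edgeR adjusted p = 7.23e-07). The other rises among the 10 largest were AT4G21730 (log2 fold change 5.45, SE 0.24), the zinc finger gene AT5G04210 (5.30, SE 0.44) and AT4G05380 (5.14, SE 0.27), a gene of the P-loop nucleoside triphosphate hydrolases. AT4G21730 and AT5G04210 differed less between genotypes at 7 d than at 3 h, by 1.29 and 2.46 on the log2 scale, while AT4G05380 differed more at 7 d.

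The largest falls were mostly already present without Dex. SESA5 (AT5G54740, chromosome 5, 22238358 to 22239187), a seed 2S albumin gene, stood at 13.0, 16.1, 17.1 and 24.7 CPM in WT and at 0.827, 0.337, 1.07 and 0.448 CPM in the EXPA1 OE line. Its log2 fold change was -4.74 (SE 0.29) at 7 d and -4.39 without Dex. SESA2 fell by 4.74 on the log2 scale (SE 0.77), the P-loop hydrolase gene AT5G56220 by 3.54 (SE 0.21), the defensin-like gene LCR67 by 3.54 (SE 0.52) and the LEA gene AT2G18340 by 3.41 (SE 0.64). AT1G27461, the chitinase family gene AT2G43620, the thionin gene AT2G15010 and AT1G65090, annotated as nucleolin, had log2 fold changes of -3.23 to -2.95. These genes were all lower in the line without Dex as well. ACD6 (AT4G14400, chromosome 4, 8294446 to 8298602) was the exception. This ankyrin protein gene, a promoter of salicylic acid dependent defence, stood at 7.06, 6.77, 31.7 and 27.0 CPM in WT and at 0.473, 0.623, 3.14 and 5.04 CPM in the EXPA1 OE line. It fell by 3.11 on the log2 scale (SE 0.21, edgeR adjusted p = 3.38e-05; adjusted p = 0.0493 without the block) at 7 d, and its difference without Dex, -0.82, was not called. The 7 d difference of ACD6 was lower than that without Dex by 2.29 (edgeR adjusted p = 0.0134).

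A part of the genes of protein folding in the ER rose. In the list of ER folding genes 14 of 27 passed the test upward, with a median log2 fold change of 1.03, beside 2.90% and a median of -0.0012 over all tested genes. No member fell in edgeR (0 also at an unadjusted p below 0.05) or in DESeq2. The same 14 of 27 count was obtained without the block, and with no fold threshold 25 of the 27 were higher, beside 19.2% of all tested genes (38.9% in either direction). In 23 of the 27 all EXPA1 OE libraries stood above all WT libraries. BIP3 (AT1G09080, chromosome 1, 2929217 to 2931841), the stress-inducible member of the HSP70 chaperones of the ER lumen, stood at 1.62, 0.810, 1.36 and 1.06 CPM in WT and at 21.4, 29.0, 42.4 and 78.6 CPM in the EXPA1 OE line. It had the largest rise of the list (log2 fold change 5.05, SE 0.36, edgeR adjusted p = 4.91e-05). Its constitutive relatives BIP1 and BIP2 were far more abundant and rose less. BIP1 stood at 219 to 282 CPM in WT and at 375 to 793 CPM in the line (log2 fold change 1.13, SE 0.12), and BIP2 at 197 to 259 and 332 to 754 CPM (1.13, SE 0.13). BIP1 and BIP2 are near-identical copies, so reads may be split between them, and without EXPA1 OE replicate 4 they had log2 fold changes of 0.99 and 0.98, just under the threshold.

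The other 11 rises were among co-chaperones, oxidoreductases, nucleotide sugar transporters and other ER proteins. ERDJ3A (chromosome 3, 2737537 to 2740530), a J-domain co-chaperone of BiP, stood at 3.07, 3.31, 4.06 and 3.97 CPM in WT and at 30.6, 49.8, 65.5 and 90.2 CPM in the line (log2 fold change 3.98, SE 0.21). TIN1 (chromosome 5, 25784404 to 25786307), a plant gene induced by the glycosylation inhibitor tunicamycin, stood at 0.989, 0.845, 1.63 and 1.23 CPM and at 7.45, 13.4, 18.03 and 25.6 CPM (3.74, SE 0.24). Both genes were highest in replicates 3 and 4 of the line. UTR1 and UTR3, transporters that bring UDP-glucose into the ER for the quality control of glycoproteins, showed little spread. UTR1 (chromosome 2, 801530 to 803436) stood at 6.93 to 8.05 CPM in WT and 26.5 to 35.7 CPM in the line (2.04, SE 0.08). UTR3 (chromosome 1, 4911093 to 4913152) stood at 11.0 to 12.4 and 38.5 to 53.7 CPM (1.89, SE 0.10). ERO1 (chromosome 1, 27211845 to 27214665), the oxidase that recharges protein disulfide isomerases, stood at 1.33 to 1.90 and 6.59 to 13.8 CPM (2.47, SE 0.16). Its partners PDIL1-2 (2.17, SE 0.23), PDIL2-2 (2.12, SE 0.18), PDIL2-3 (1.37, SE 0.16) and PDIL2-1 (1.03, SE 0.12) were higher too, as were the ER chaperone HSP70-17 (1.61, SE 0.12) and the co-chaperone P58IPK (1.05, SE 0.10). PDIL2-1 was under the fold threshold without WT replicate 3 (0.98), WT replicate 4 (0.97) or EXPA1 OE replicate 4 (0.92), and P58IPK without EXPA1 OE replicate 4 (0.95). The 13 members that were not called had log2 fold changes of 0.05 to 0.91. They included the lectin chaperones CNX1 (0.88), CNX2 (0.75), CRT1 (0.71), CRT2 (0.80) and CRT3 (0.05), the HSP90 of the ER, SHD (0.91), and also the co-chaperone gene ERDJ3B (0.83) and the oxidoreductase genes PDIL1-1 (0.75), PDIL1-3 (0.73), PDIL1-4 (0.22) and ERO2 (0.088).

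Promoter letters of the UPR were looked for in the 250 bases before the start of each gene, on both strands, because these elements bind the bZIP factors of the response. The motifs were ERSE-I (CCAAT and CACG with 10 bases of any kind between them), ERSE-II (ATTGG and CCACG with 1 base between them), UPRE (TGACGTGG) and pUPRE-II, and ERSE-II shares the letters CCACG with a reverse UPRE where both occur. Over 33322 such windows ERSE-I was found in 0.822%, ERSE-II in 0.0600%, UPRE in 1.43% and pUPRE-II in none, and over the 20535 windows of tested genes in 1.21%, 0.0974%, 1.98% and none. Among the 14 called ER folding genes ERSE-I was found in 6, ERSE-II in 2 and UPRE in 5. Among all 27 they were found in 13, 2 and 9. Among all 600 genes called higher ERSE-I was found in 22 and UPRE in 15, and among 606 of those called lower in 1 and 15. The stretches below show the motif in capitals for the called genes UTR3, TIN1, BIP1 and BIP3, read on the strand of the gene from 5′ to 3′ in TAIR10 coordinates, and a match is a description of letters and not of binding.
UTR3, ERSE-I, chr1:4913191-4913220, minus strand: ttaagCCAATGACACAGTTACACGtggaaa
TIN1, reverse UPRE, chr5:25784260-25784289, plus strand: gtgactcaacaCCACGTCAcacatcgttta
TIN1, reverse UPRE, chr5:25784324-25784353, plus strand: gctaatactctCCACGTCAtcatctcttcc
BIP1, ERSE-II, chr5:10543422-10543451, minus strand: cgtaagataATTGGTCCACGtcatctctga
BIP3, reverse ERSE-I, chr1:2932000-2932029, minus strand: tgtcaCGTGTCTGCTTGTGATTGGgtactt
BIP3, reverse ERSE-I, chr1:2931922-2931951, minus strand: gcttaCGTGTCAAGAAGTGATTGGagagga
None of the 4 motifs was found in the windows of UTR1, ERDJ3A, ERO1 and PDIL2-3.

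Calls upstream and downstream of folding were rises, beside 2.90% higher over all tested genes. Of 10 UPR regulators 3 were higher. BZIP60, the transcription factor gene whose mRNA is spliced by IRE1, stood at 21.8, 29.2, 29.5 and 25.9 CPM in WT and at 66.1, 95.3, 112 and 154 CPM in the line (log2 fold change 1.97, SE 0.19). NAC103, a transcription factor gene downstream of bZIP60, had a log2 fold change of 2.86 (SE 0.24), and BI1, which encodes an inhibitor of cell death in the ER membrane, 1.70 (SE 0.16). In ER-associated degradation 4 of 9 genes rose, namely DER2.1 (1.18, SE 0.11), a Derlin of the retrotranslocation channel, OS9 (1.15, SE 0.13), a lectin that recognizes misfolded glycoproteins, and HRD3A (1.07, SE 0.13) and HRD1B (1.44, SE 0.18) of the ubiquitin ligase complex. HRD3A was under the fold threshold without WT replicate 3 (0.99) or EXPA1 OE replicate 4 (0.97). Of 10 COPII genes 4 were higher. Beside SEC31A they were the small GTPase genes SAR1B (1.19, SE 0.09) and SAR1A (3.11, SE 0.34) and the cargo receptor gene SEC24B (1.41, SE 0.13). No member of these 3 lists was lower in edgeR or in DESeq2, and at an unadjusted p below 0.05 none was lower either.

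The ER genes were compared with the other conditions to see when they differed. Without Dex the 27 folding genes had a median of -0.19, and at an adjusted p below 0.05 the 7 d difference was the higher one for 25 of them. After 3 h of Dex 22 of the 27 were higher with a median of 2.58. The difference at 7 d was smaller than at 3 h for 22 of the 27, including all 14 called at 7 d, and larger for 2 (edgeR, adjusted p under 0.05), where 18.7% and 21.8% of all tested genes passed in these directions (40.6% in all). In 1 library of the 3 h group, EXPA1 OE replicate 2, exon counts were 83.3% of the estimated counts, beside 93.3% to 97.8% in all other libraries. Without that library the counts stayed at 22 and 2. The other differences between 7 d and 3 h given here for single genes kept their direction and their side of the threshold without it. SEC31A had log2 fold changes of 7.63 at 3 h and 7.48 at 7 d, a difference of -0.14 (edgeR adjusted p = 0.842).

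**Figure D3:**
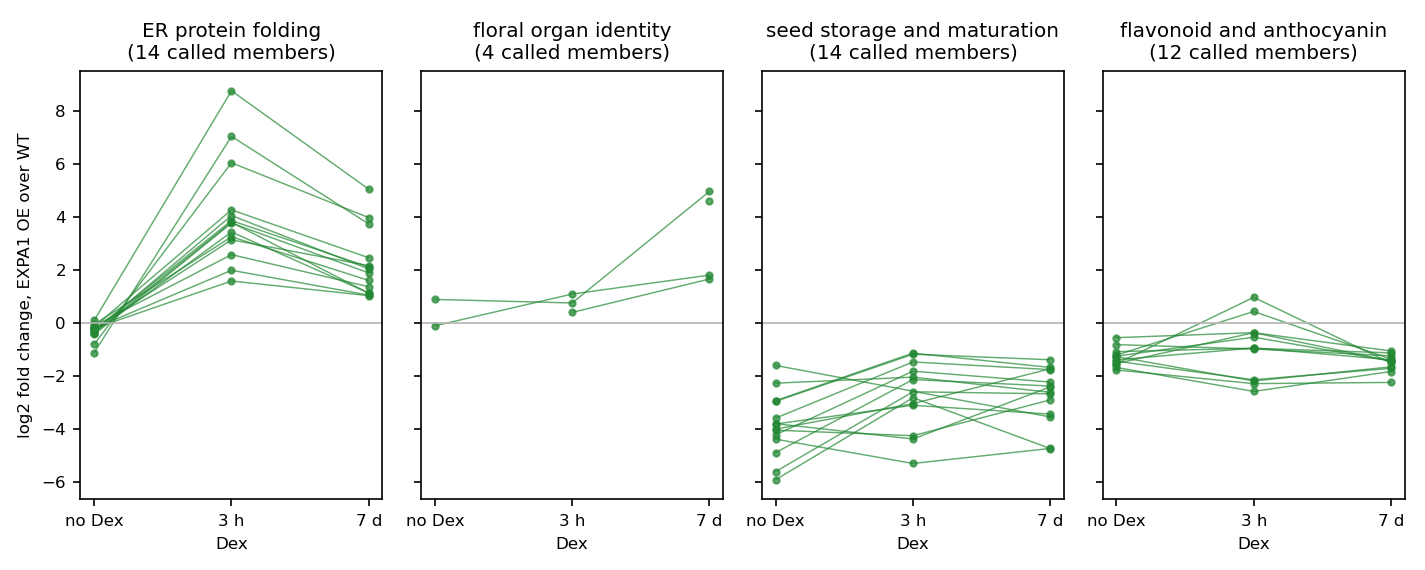
Log2 fold change of EXPA1 OE over WT (y) without Dex, after 3 h and after 7 d on Dex (x) for the members of 4 lists called at 7 d, 1 line per gene, a point is missing where a gene was not tested. ER folding genes are near or below 0 without Dex, highest at 3 h and lower at 7 d, floral genes are highest at 7 d, seed genes are below 0 in every condition and flavonoid genes too, apart from 2 at 3 h.

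Floral organ identity genes are normally kept silent by Polycomb repression until flowering. Of 14 such genes 8 were tested and 4 were higher in these seedling shoots, beside 2.90% of all tested genes, with a median log2 fold change of 1.297. The count filter let in a gene with enough counts in 1 genotype alone, and most of these genes were near silent in WT. That can raise the share called, so 4 of 8 cannot be weighed against 2.90%. In the comparison without Dex 6 of the 14 were tested and 0 were called. The summed level of all 14 was 14.7 to 16.99 CPM in WT and 79.8 to 129 CPM in the line on Dex, and 17.004 to 20.1 CPM in the line without Dex. In the line on Dex most of that sum was SEP3 (AT1G24260, chromosome 1, 8593637 to 8596105), the MADS-box gene whose protein joins the other floral MADS proteins in complexes. SEP3 stood at 3.22, 3.72, 2.501 and 1.65 CPM in WT and at 113, 101, 67.2 and 63.7 CPM in the line, so that the lowest line library was well above every WT library. Its log2 fold change was 4.97 (SE 0.12, edgeR adjusted p = 3.57e-07). AG (AT4G18960, chromosome 4, 10382856 to 10388539), the gene of stamen and carpel identity, stood at 0.0511, 0.0689, 0.151 and 0.0754 CPM in WT and at 2.28, 2.21, 2.14 and 2.05 CPM in the line (4.62, SE 0.28). The petal and stamen gene PI (1.81, SE 0.37) and the fruit gene SHP2 (1.66, SE 0.47) were under 1 CPM in every library. SHP2 lost its call in 4 of the 8 fits with a library left out: WT replicate 1 (edgeR adjusted p = 0.0512), WT replicate 3 (0.0575), EXPA1 OE replicate 1 (0.0642) and EXPA1 OE replicate 4 (0.0771). LFY, AP1 and AP3 were among the 6 genes with too few counts to test. The 7 d difference exceeded that without Dex for SEP3 by 4.09 and for AG by 4.54, and exceeded that at 3 h by 4.23 and 4.08 (edgeR, adjusted p from 2.53e-10 to 0.000684). None of 17 Polycomb genes and antagonists was called by edgeR or DESeq2, and at an unadjusted p below 0.05 in edgeR 3 were higher and 1 lower, beside 4980 and 5040 of all 20665 tested genes.

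Of 19 flowering time genes 3 were higher, beside 2.90% of all tested genes. TFL1 (chromosome 5, 1024641 to 1025812), a repressor of floral identity in the shoot apex, stood at 0.0852 to 0.168 CPM in WT and at 1.65 to 2.64 CPM in the line (log2 fold change 3.91, SE 0.21). CO, the photoperiod regulator, stood at 0.981 to 1.35 and 2.57 to 4.96 CPM (1.54, SE 0.22), and its 7 d difference was smaller than that at 3 h by 1.70. SPL3 (1.31, SE 0.20) was called with the block only (adjusted p = 0.119 without it), and its WT replicates 1 and 2 overlapped with replicates 3 and 4 of the line.

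Of 20 genes of procambium and phloem 2 were higher, beside 2.90% of all tested genes. With no fold threshold 13 were higher, beside 19.2% of all tested genes. WOX14 (chromosome 1, 7182558 to 7184009), a homeobox gene of vascular cell proliferation, stood at 0.324, 0.224, 0.285 and 0.352 CPM in WT and at 9.66, 10.2, 9.54 and 8.30 CPM in the line (log2 fold change 4.96, SE 0.15, edgeR adjusted p = 6.94e-07). At 3 h its log2 fold change was 4.85. SWEET11 (chromosome 3, 18052466 to 18054755), a sucrose exporter of the phloem parenchyma, stood at 159, 153, 150 and 154 CPM and at 405, 348, 416 and 437 CPM (1.38, SE 0.07). At 3 h SWEET11 had been lower in the line (-2.18), and the difference at 7 d exceeded that one by 3.57 (edgeR adjusted p = 2.18e-11). SWEET13, another sucrose exporter, was called with the block only (2.78, SE 0.46; adjusted p = 0.116 without it). The summed level of the phloem list was 616 to 766 CPM in WT and 1076 to 1251 CPM in the line. Without WT replicate 2 or without EXPA1 OE replicate 2 the count of the list was 4 instead of 2.

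Among single genes of other lists, PAL3 (chromosome 5, 1160634 to 1163898), a phenylalanine ammonia-lyase, stood at 36.9 to 44.4 CPM in WT and 147 to 238 CPM in the line (log2 fold change 2.23, SE 0.11), the only rise among 33 genes of secondary CW and lignin. F5H of the same list was lower with the block only (-1.22, SE 0.12; adjusted p = 0.0945 without it). Calls in this and the next lists stand beside 2.90% higher and 3.01% lower over all tested genes (2.22% and 1.65% without the block). Of 11 aliphatic glucosinolate genes, MAM3 (1.96, SE 0.21), which elongates methionine side chains, and CYP79F2 (1.59, SE 0.17), which makes the aldoximes, were higher. Of 15 senescence genes 3 were higher and 2 lower, and 2 and 0 without the block. NAC056, a transcription factor gene, rose (1.98, SE 0.11), as did XTH24. SEN1 was called with the block only (1.99, SE 0.27; adjusted p = 0.214 without it) and overlapped across pairs, with 64.8 and 48.5 CPM in WT replicates 1 and 2 and 35.2 and 26.9 CPM in EXPA1 OE replicates 3 and 4. SAG13 (-1.79) and WRKY53 (-1.29) were lower with the block only.

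Within the CW genes, few expansins followed EXPA1. Of 24 expansin genes tested, of 35 listed, 3 were higher and 5 lower, with a median log2 fold change of -0.39, and without the block 2 and 3. Over all tested genes 2.90% were higher and 3.01% lower, and 2.22% and 1.65% without the block. EXPA2 (AT5G05290, chromosome 5, 1568694 to 1569864) was the other clear rise. It stood at 0.392, 0.448, 0.168 and 0.428 CPM in WT and at 2.22, 2.44, 4.16 and 5.49 CPM in the line (log2 fold change 3.24, SE 0.36). Without Dex EXPA2 was lower in the line (-3.05), so its direction turned on Dex, with a change of 6.30 on the log2 scale (edgeR adjusted p = 0.000351). EXPA8 (chromosome 2, 16948863 to 16950557) was the most even fall, with 53.6, 51.4, 55.0 and 48.3 CPM in WT and 17.05, 20.6, 18.4 and 20.5 CPM in the line (-1.44, SE 0.08, edgeR adjusted p = 1.28e-05). EXPA15 stood at 22.8, 22.8, 47.4 and 43.3 CPM in WT and at 8.75, 12.7, 13.5 and 12.4 CPM in the line (-1.45, SE 0.17). The expansin-like gene EXLB1 stood at 8.93 to 11.2 and 1.596 to 5.31 CPM (-1.44, SE 0.25). For EXPA8, EXPA15 and EXLB1 the groups did not overlap and the 7 d difference was lower than that without Dex, by 1.09, 1.18 and 1.18.

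The remaining expansin calls needed the block. EXPB3 stood at 60.3, 52.8, 116 and 118 CPM in WT and at 24.1, 35.3, 50.0 and 55.2 CPM in the line (-1.04, SE 0.12; adjusted p = 0.0714 without the block), and without EXPA1 OE replicate 1 or 3 it was at -0.96 or -0.98. EXPB1 had a log2 fold change of -1.48 (SE 0.26; adjusted p = 0.0729 without the block). EXLA1 had one of 1.24 (SE 0.35; adjusted p = 0.0553 without the block) and lost its call without WT replicate 3 or 4 or EXPA1 OE replicate 1 or 3 (edgeR adjusted p from 0.0521 to 0.0659). Of the other 16 expansins, EXPA3 (-0.85), EXPA5 (-0.73), EXPA11 (-0.55), EXPA4 (-0.54) and EXPA6 (-0.46) passed the adjusted p but not the fold threshold, as did EXPA14 (0.86) and EXPA9 (0.43). The adjusted p of EXPA20 (-0.40), EXPA10 (0.17), EXPA13 (0.11), EXPA16 (0.39), EXPA18 (-0.58), EXPA7 (-0.19), EXPA17 (0.08), EXLA2 (0.30) and EXLA3 (-0.38) was 0.101 or more. EXPA16 was at 12.6 and 13.0 CPM in WT replicates 1 and 2 and at 2.57 and 2.92 in 3 and 4, while the line held 6.29 to 9.95 CPM.

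Of 29 XTH genes 4 were higher and 2 lower, and 3 and 1 without the block. Apart from fits of 1 pair, the counts of this paragraph stand beside 2.90% higher and 3.01% lower over all tested genes (2.22% and 1.65% without the block). The pairs differed for this list. Replicates 1 and 2 alone gave 2 higher and 8 lower (median -0.46), beside 462 and 574 of all 20597 genes. Replicates 3 and 4 alone gave 6 higher and 0 lower (median 0.39), beside 849 and 603 of all 20859. In a test of the change between pairs 1 of the 29 passed. XTH24 stood at 35.6, 47.2, 31.7 and 42.8 CPM in WT and at 164, 77.2, 111 and 101 CPM in the line (log2 fold change 1.52, SE 0.22). XTH10 stood at 0.903 to 1.19 and 2.18 to 2.93 CPM (1.31, SE 0.16), and XTH15 at 3.07 to 8.53 and 9.68 to 18.8 CPM (1.48, SE 0.29). XTH17 was lower, with 7.39 to 8.76 and 2.18 to 4.22 CPM (-1.31, SE 0.18). The time course differed between them: XTH15 was farther from WT at 3 h (4.04), XTH17 was above WT at 3 h (1.38), and XTH10 and XTH24 were not called at 3 h (-0.10 and 0.53). XTH23 (1.16) and XTH31 (-1.08) were called with the block only. XTH23 lost its call in 6 of 8 fits with a library left out (edgeR adjusted p from 0.0686 to 0.127, all but those without WT replicate 2 or EXPA1 OE replicate 2), and XTH31 was at -0.94 without EXPA1 OE replicate 1, which left 1 XTH lower. Of 27 PME genes, PME13 (chromosome 2, 11251120 to 11253612) stood at 0.0168 to 0.0852 CPM in WT and at 1.38 to 2.69 CPM in the line (5.06, SE 0.31). PME18 was called with the block only (1.01, SE 0.26; adjusted p = 0.0561 without it) and lost its call without WT replicate 3 (edgeR adjusted p = 0.0505), WT replicate 4 (0.0578) or EXPA1 OE replicate 4 (log2 fold change 0.79), which left 1 PME higher. Without WT replicate 2 there were 5 PMEs higher and without EXPA1 OE replicate 2 there were 4. PME61, which the paper lists as higher at 7 d from DESeq2, was not called in the fit of all 8 libraries. Of 34 CESA and CSL genes none was higher in edgeR or DESeq2 (1 at an unadjusted p below 0.05). CSLB3 (-1.58, SE 0.26) and CSLG1 (-1.21, SE 0.23) were lower with the block only, and without WT replicate 2 or EXPA1 OE replicate 2 the list had 4 or 5 lower.

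**Figure D4:**
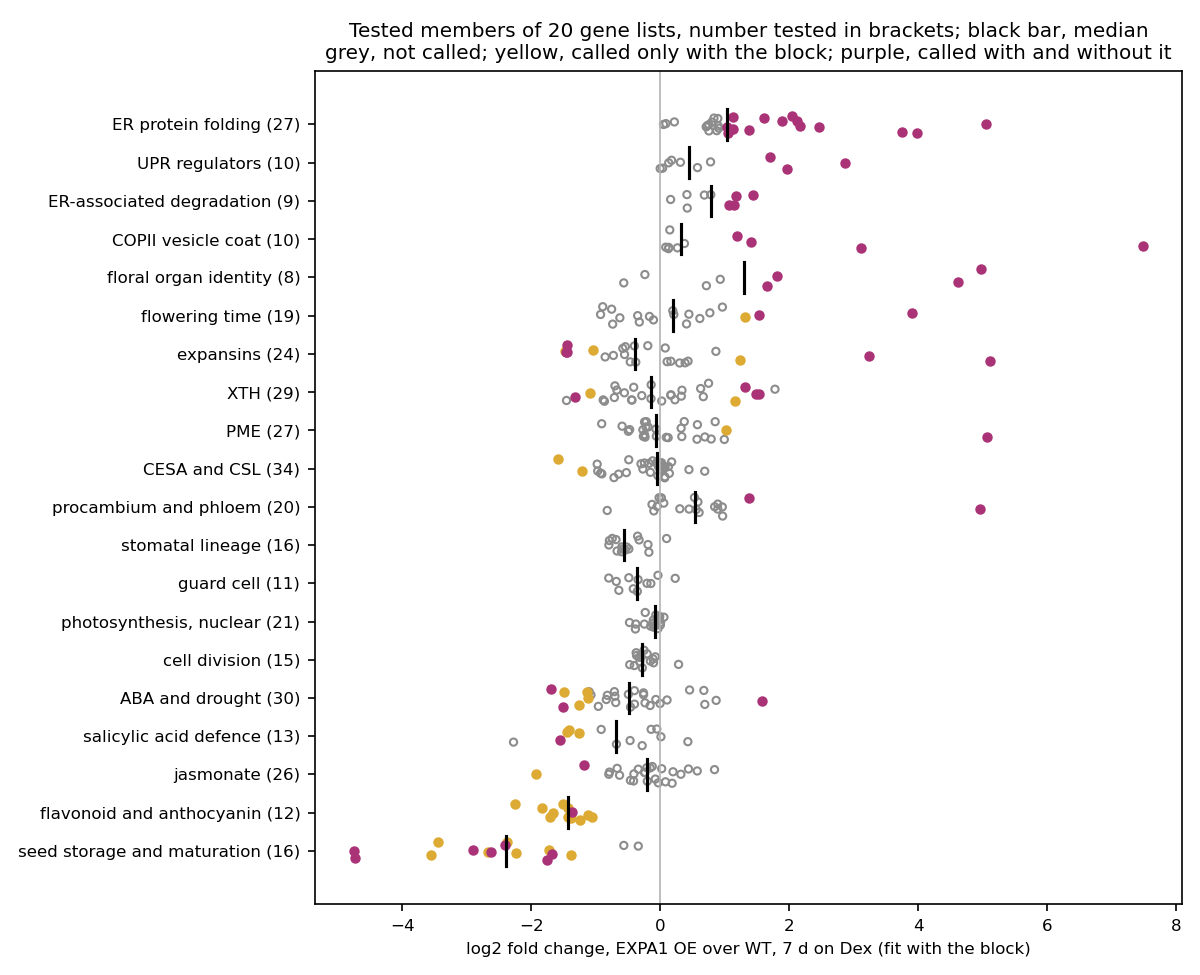
Log2 fold change of EXPA1 OE over WT at 7 d (x) for the tested members of 20 gene lists (y, number tested in brackets). Each point is 1 gene, grey, not called, yellow, called with the block only, purple, called with and without it. The black bar is the median of a list and the grey line the median of all tested genes. ER folding has 14 of 27 members called to the right, seed storage 14 of 16 and flavonoids 12 of 12 called to the left, the last nearly all in yellow.

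Seed storage and maturation genes, whose RNA is carried over from the seed or expressed late in embryogenesis, were the lowest list. Of 16 tested, of 22 listed, 14 were lower with a median log2 fold change of -2.40, beside 3.01% lower over all tested genes, and without the block 7. The summed level of all 22 was 243 to 330 CPM in WT and 16.96 to 114 CPM in the line, where LEC1 was at 0 in all 4 libraries. ABI3, a master regulator of seed maturation, stood at 3.85, 4.74, 3.51 and 4.19 CPM in WT and at 0.443, 0.856, 0.663 and 0.660 CPM in the line (-2.62, SE 0.20, edgeR adjusted p = 6.09e-05). The LEA genes EM1 (-2.90, SE 0.47) and EM6 (-1.68, SE 0.28) fell as well. The cruciferins, the main storage globulins, varied widely inside the line. CRA1 stood at 92.6, 117, 78.1 and 82.5 CPM in WT and at 0.768, 23.6, 36.9 and 12.5 CPM in the line (-2.38, SE 0.72; adjusted p = 0.0836 without the block). CRU3 stood at 41.8 to 47.1 and 0.295 to 22.0 CPM (-2.67, SE 0.81; adjusted p = 0.104 without the block). CRA1 lost its call without WT replicate 1 or 4 or EXPA1 OE replicate 4 (edgeR adjusted p from 0.0541 to 0.0695) and CRU3 without WT replicate 1 or 4 or EXPA1 OE replicate 2 (0.0553 to 0.0621). Without WT replicate 4 the list had 9 genes lower instead of 14. In the uninduced line 15 of 17 tested genes were lower, with a median of -3.81 and a summed level of 9.49 to 34.7 CPM against 193 to 384 in WT. The 7 d difference was less negative than that for 2 of 16 genes (edgeR, adjusted p under 0.05), beside 10.4% of all tested genes, with a median change of 1.34. In bulk shoots, fewer cells that hold a transcript and less of it per cell cannot be told apart.

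Flavonoid and anthocyanin genes were lower in both pairs of libraries, and the pairs stood apart as well. All 12 tested genes were lower with the block, with a median log2 fold change of -1.43, and 1 without it. Over all tested genes 3.01% were lower with the block and 1.65% without it. With DESeq2 without the block 4 were lower. TT4, chalcone synthase and the first enzyme of the pathway, stood at 423, 441, 772 and 803 CPM in WT and at 127, 187, 374 and 405 CPM in the line (-1.24, SE 0.13; adjusted p = 0.0853 without the block). Replicates 3 and 4 were above replicates 1 and 2 in both genotypes, and the line was lower in each pair (-1.46 and -1.02). The later enzymes LDOX (-1.65, SE 0.22) and DFR (-1.71, SE 0.25), the flavonol enzyme FLS1 (-1.44, SE 0.21) and the regulators TT8 (-1.51, SE 0.21) and PAP1 (-2.24, SE 0.46) showed the same pattern. MYB12, a flavonol regulator, was the member also called without the block (-1.36, SE 0.23). Without Dex 10 of 12 were lower with a median of -1.33, and the median change from there to 7 d was -0.16.

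In the fit with the block the ABA, salicylic acid, gibberellin and jasmonate lists held more falls than rises, beside 2.90% higher and 3.01% lower over all tested genes. Replicates 1 and 2 alone gave the same order in each list. With replicates 3 and 4 alone, ABA had 3 higher and 3 lower and jasmonate 4 higher and 1 lower. Over all 20859 genes tested there, 849 were higher and 603 lower. Without the block gibberellin had 1 higher and 1 lower, beside 2.22% and 1.65%. Of 30 ABA and drought genes 1 was higher and 6 lower, and 1 and 2 without the block (2 higher without EXPA1 OE replicate 2). PYL6, an ABA receptor, rose (1.58, SE 0.18), while the seed ABA factor gene ABI5 (-1.50, SE 0.13) and the dehydrin gene RAB18 (-1.70, SE 0.31) fell in both fits and were also lower without Dex (-2.01 and -2.29). The other 4, including COR15A (-1.26, SE 0.28) and COR15B (-1.13, SE 0.28), needed the block. Of 13 salicylic acid genes 4 were lower, and 1 without the block. CBP60G, a regulator of salicylic acid synthesis, stood at 2.08 to 7.47 CPM in WT and 1.43 to 1.99 in the line (-1.56, SE 0.33), WRKY70 at 3.90, 5.998, 15.3 and 10.1 and at 1.63, 1.97, 3.29 and 5.96 CPM (-1.45, SE 0.23; adjusted p = 0.0965 without the block). SARD1 (-1.41) and PBS3 (-1.26) also needed the block, and PBS3 lost its call without EXPA1 OE replicate 3 (edgeR adjusted p = 0.0615). The difference of WRKY70 at 7 d was lower than at 3 h by 2.37 and that of SARD1 by 2.54 (edgeR adjusted p = 0.000178 and 0.000107).

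Of 24 gibberellin genes GAMT2 was the rise, and 4 of the synthesis genes were lower. Here and for the lists that follow in this paragraph, 2.90% of all tested genes were higher and 3.01% lower. GA1, the first committed enzyme, was also lower without the block (-1.32, SE 0.33), while GA3OX1 (-1.30), GA3OX2 (-1.79) and GA20OX1 (-1.64), which complete the active hormone, needed it. GA20OX1 fell in replicates 1 and 2 (-3.49) and less in 3 and 4 (-0.58), and lost its call in 5 of 8 fits with a library left out (edgeR adjusted p from 0.0504 to 0.0785, all but those without WT replicate 3 or 4 or EXPA1 OE replicate 3). Of 26 jasmonate genes LOX3 (-1.18, SE 0.28) and LOX4 (-1.92, SE 0.30; block only) were lower, and LOX3 was at -0.82 without WT replicate 2, which left 1. Of 24 Aux/IAA genes IAA1 (-1.32, SE 0.11) and IAA5 (-1.37, SE 0.37; block only) were lower, and without EXPA1 OE replicate 3 there were 4. Of 62 SAUR genes 4 were higher and 6 lower, and without EXPA1 OE replicate 2 there were 8 higher. SAUR49 had the smallest adjusted p (1.43, SE 0.13), and SAUR74 (-1.37, SE 0.20) and SAUR60 (-1.79, SE 0.30) led the falls. In the heat shock list HSP70-4 (-1.36, SE 0.18) and HSP17.6II (-1.79, SE 0.34) were lower with the block only, 2 of 10, and without EXPA1 OE replicate 1 there were 4. Of 13 cuticle genes CYP86A7, a fatty acid hydroxylase, stood at 1.88 to 2.05 CPM in WT and 0.675 to 0.867 in the line (-1.30, SE 0.15), where its value without Dex was 0.95. Without WT replicate 4 or EXPA1 OE replicate 2 there were 2 lower in this list. The root stem cell gene WOX5 fell (-1.17, SE 0.19).

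Lists that mark cell types were examined beside these results. Nuclear photosynthesis genes, which mark green tissue, summed to 93693 to 130460 CPM in the line and 114050 to 135440 CPM in WT, and none of 21 was called. The 13 genes of other root tissue summed to 94.4 to 136 and 96.9 to 134 CPM, and the root hair genes to 11.1 to 44.1 and 25.1 to 45.1 CPM. Root and shoot markers thus overlapped between genotypes, and their part in the results was not tested. None of 16 genes of the stomatal lineage was called, but all except YDA had log2 fold changes below 0, 13 were lower with no fold threshold (background 19.8%), and the median was -0.56. In 12 of them all line libraries were below all WT libraries. SPCH, which starts the lineage, was at -0.80, MUTE at -0.68, FAMA at -0.49 and the peptide gene EPFL9 at -0.79. Their summed level was 237 to 273 CPM in the line and 320 to 337 CPM in WT on Dex, and 341 to 358 CPM in the line without Dex. Of 11 guard cell genes none was called and 5 were lower with no fold threshold, such as the potassium channel KAT1 (-0.80) and the anion channel SLAC1 (-0.68). DESeq2 called none in these lists either, and at an unadjusted p below 0.05 edgeR had 14 stomatal lineage, 7 guard cell and 6 photosynthesis genes lower and none higher. Over all 20665 tested genes 5040 were lower and 4980 higher at that threshold. None of 15 cell division, 17 CW integrity, 10 brassinosteroid, 11 indole glucosinolate and 12 root hair genes was called by edgeR or DESeq2. At an unadjusted p below 0.05 these had 1, 4, 1, 5 and 0 genes higher and 9, 4, 2, 2 and 1 lower, to be read against the same counts over all genes.

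The pairs of replicates were compared with each other because they parted in both genotypes. Of the 600 rises 588 had the same sign in replicates 1 and 2 and in replicates 3 and 4, and of the 621 falls 601 did. These genes were called on the same 8 libraries, so like signs follow in part from the selection. These shares thus do not measure how well the pairs agree. In a test of the genotype by pair term, 60 genes (0.290%) differed between pairs, 44 (0.213%) with a more positive difference in replicates 3 and 4 and 16 (0.0774%) with a more negative one. At 7 d 3 of the 60 were called: EM6, GA20OX1 and AT4G12490. For the 27 ER folding genes the median difference between pairs was 0.43. With replicates 1 and 2 alone 9 of them were higher, beside 462 of all 20597 genes tested there. With replicates 3 and 4 alone 19 were higher, beside 849 of all 20859. None of the 27 passed the test of the genotype by pair term. PRR5, a clock gene, was called higher (1.37, SE 0.47, edgeR adjusted p = 0.0464), but its rise was in replicates 1 and 2 (2.21) and not in 3 and 4 (-0.07), its adjusted p was 0.224 without the block, and it lost its call in 5 of 8 fits with a library left out (0.0566 to 0.173, all but those without WT replicate 4 or EXPA1 OE replicate 3 or 4).

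**Figure D5:**
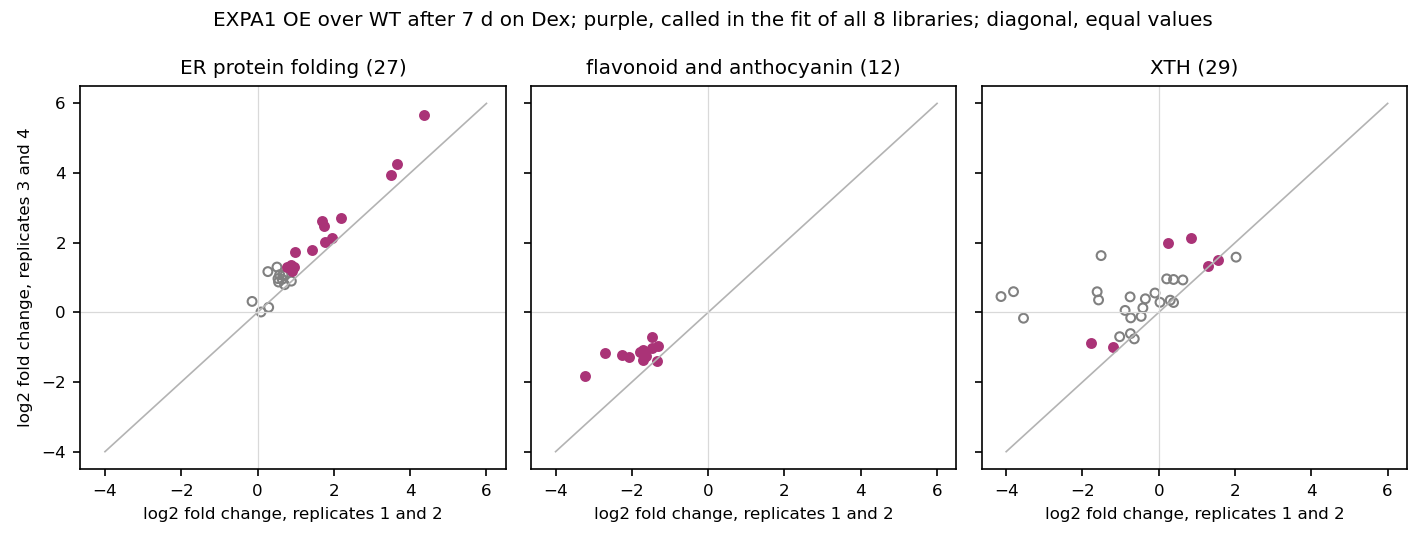
Log2 fold change of EXPA1 OE over WT in replicates 1 and 2 (x) and in replicates 3 and 4 (y), 1 point per gene, for ER folding, flavonoid and XTH genes, purple, called in the fit of all 8 libraries, diagonal, equal values. Called ER folding genes lie in the upper right and flavonoid genes in the lower left in both pairs. XTH genes have a median of -0.46 in replicates 1 and 2 and of 0.39 in replicates 3 and 4.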

How the data were processed

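Shoots of WT and of EXPA1 OE line 8-4 were measured by RNA-seq. Per the labels the authors used Trimmomatic, STAR, RSEM, featureCounts and TAIR10, and they deposited RSEM expected counts (estimated counts, not normalised) and exon counts. The labels and the paper name different library kits and read lengths, and it is not stated whether duplicates of molecular identifiers were removed. The labels swap genotype and treatment fields, so titles were used. Expected counts were rounded and tested with edgeR 4.0.16 (R 4.3.3): expression filter, TMM, quasi-likelihood F test with the block of replicates 1 and 2 against 3 and 4. SE is the size of the log2 fold change over the square root of F.

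The members and the 36 gene lists were chosen with earlier results of these data known. Named genes were EXPA1, the 10 largest rises and falls called with and without the block, above a mean of 1 CPM and separated in all libraries, up to 5 called genes per list by adjusted p, all expansins and the paper's 7 d genes. Uncalled list members and BIP1, BIP2, BIP3, PDIL1-2, PDIL2-1, PDIL2-2, PDIL2-3, HSP70-17, P58IPK, CRA1, CRU3, DFR, FLS1, PAP1, MYB12 and the genes of the closing section were named after their values were seen, as were the promoter stretches of BIP1 and BIP3. Same-numbered libraries deviated together (correlations 0.528, 0.196, 0.346 and 0.472), and numbers within a pair did so too, a pairing that comes from the counts alone. Promoter windows were read from the reference genome (TAIR10), whose exon gaps had splice ends in 98.6%. Ratios for genes with few counts carry exact binomial intervals (95%, scipy 1.17.1). Alternatives were DESeq2 1.42.0, other scaling, filters, fold thresholds, exon counts, all 24 libraries, each pair alone, each library left out, and, added after the data were seen, 1 library of the 3 h group left out. Python 3.11.15, pandas 2.3.3 and numpy 2.4.6 were used. The tests were tried on simulated data. No column was left out. A result on 1 withheld item is not reported here.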

Additional observations from a re-analysis of the deposited data

Results flagged for a closer look

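In 7 of 248 groups of 4 libraries examined, 1 library stood far from the other 3, where chance gives about 1 in 20. In the EXPA1 OE line these were AT5G04210 in replicate 1 (2.39 CPM, lowest), SESA2 in replicate 3 (0.536 CPM, highest), AT2G15010 in replicate 2 (0.675 CPM, highest) and SAUR49 in replicate 1 (16.2 CPM, highest). In WT they were AT1G27461 (4.95 CPM, highest), EXLA3 (1.55 CPM, highest) and PI (0.103 CPM, lowest), each in replicate 2.

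The genotype difference at 7 d departed from that in another condition by a test of the difference itself (edgeR, adjusted p under 0.05) for these genes. Against the difference without Dex it was larger on the log2 scale by 4.88 for EXPA1, 7.86 for SEC31A, 7.23 for AT3G19430, 5.80 for GAMT2, 5.48 for AT4G21730, 5.06 for AT5G04210, 5.997 for AT4G05380, 6.30 for EXPA2, 4.37 for PME13, 1.81 for PME18, 1.06 for XTH24 and 1.21 for XTH10. It was lower, with differences of -2.29 for ACD6, -1.09 for EXPA8, -1.18 for EXPA15, -1.18 for EXLB1 and -1.51 for XTH17.

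Against the difference after 3 h of Dex it was larger by 2.03 for AT3G19430, 4.55 for GAMT2, 5.17 for AT4G05380, 2.55 for PME13, 1.01 for XTH24 and 1.42 for XTH10. It was lower, with differences of -1.29 for AT4G21730, -2.46 for AT5G04210, -1.59 for ACD6, -1.96 for EXPA8, -2.67 for XTH17 and -2.56 for XTH15. Without EXPA1 OE replicate 2 of the 3 h group these differences kept their sign and an adjusted p of at most 0.0412.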

How the results depend on the processing

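Depth limits the genes with 2 counts over the 4 WT libraries, whose ratios have wide intervals. Without the replicate block 342 genes were lower instead of 621, and with at least 10 counts in every library 390. With no fold threshold 3958 were higher and 4085 lower, while glmTreat at a log2 fold change of 1 left 176 and 79. With 1 library left out, 523 to 682 genes were higher and 563 to 662 lower, and the log2 fold change of EXPA1 was 5.02 to 5.18. Other settings moved neither count by over 1.5 times. Of 106 called named genes 66 lost their call with glmTreat, 35 without the replicate block, 26 with replicates 1 and 2 alone, 12 with replicates 3 and 4 alone, 4 with a block by number, 18 with DESeq2 without the block and none with DESeq2 with it or with exon counts. Directions turned only for genes that were not called and for PRR5. EXPA7 was at 0.0055 without the block, 0.0044 with DESeq2 without it, 0.0081 with 24 libraries, 0.61 in replicates 3 and 4, and from -0.52 to 0.18 with 1 library left out. EXPA17 was at -0.14 without the block, -0.14 with DESeq2 without it, -0.14 with 24 libraries, -1.03 in replicates 3 and 4, and from -0.60 to 0.46 with 1 library left out. In replicates 1 and 2 EXPA13 was at -0.045, EXPA16 at -0.71 and EXLA2 at -0.38, in replicates 3 and 4 EXPA18 was at 0.14 and PRR5 at -0.069, and EXLA3 was from -0.58 to 0.055 with 1 library left out. The cause was not tested. Without the 3 h library that stood apart, 4285 genes differed upward and 4041 downward between 7 d and 3 h, beside 4613 and 3963 with it.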

Other observations

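The 60 genes whose genotype difference changed between the pairs of libraries included 6 enzyme and haemoglobin genes given here, which were picked from the 60 after their values were seen and stand for no list. ADH1, alcohol dehydrogenase, stood at 22.4, 34.3, 18.5 and 23.99 CPM in WT and at 5.14, 6.05, 48.1 and 60.8 CPM in the EXPA1 OE line, so its log2 fold change was -2.33 in replicates 1 and 2 and 1.35 in 3 and 4 (edgeR adjusted p of the change 0.0129). The haemoglobin gene HB1 had -1.31 and 2.17, the sucrose synthase gene SUS4 -0.66 and 1.95, AT4G33070, a pyruvate decarboxylase, -2.61 and 2.12, and the plant cysteine oxidase genes AT5G15120 and AT5G39890 -1.51 and 2.04, and -0.21 and 2.00.

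In the circadian clock list 3 of 14 tested genes had a more negative difference in replicates 3 and 4, beside 0.0774% of all tested genes. GI stood at 20.6, 21.2, 34.4 and 31.3 CPM in WT and at 48.3, 45.9, 18.1 and 25.6 CPM in the line, a log2 fold change of 1.18 in replicates 1 and 2 and -0.59 in 3 and 4 (edgeR adjusted p of the change 0.0234). PRR9 had 0.98 and -1.77 and PRR7 1.25 and 0.04. No label gives a harvest time or a batch for these libraries, and what set the pairs apart was not tested.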
